A study of Mus musculus with 18 samples.

Results

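Transcripts of 8 genes for the sensing of foreign or misplaced RNA and DNA (Ifih1, Ddx58, Dhx58, Eif2ak2, Adar, Mavs, Aim2 and Tlr3) were followed by RNA sequencing in mouse pancreatic tumor cells with and without the histone demethylase gene Kdm3a. The genes were chosen by symbol from known roles, at a time when earlier results of these data were known. All 8 were found among the 24493 gene symbols of the deposited table. The 6 groups of 3 libraries were 6694c2 Kdm3aKO clone B, 6694c2 Kdm3aKO clone A, 6694c2 WT, 6419c5 Kdm3aKO clone B, 6419c5 Kdm3aKO clone A and 6419c5 WT. In each group, cells of strain C57BL/6 without further treatment had been implanted under the skin, had grown into tumors and were recovered by sorting. Each knockout group is 1 clone, so its 3 libraries measure that clone. The sort marker, the way the knockout was made and whether a group's libraries trace to separate animals are not given in the sources used here, so p-values measure the spread between these libraries, which may be technical. The question was whether the sensor genes were higher in the knockout tumors together with the interferon-response genes.

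Cells recognise viral or misplaced nucleic acid by protein receptors that bind RNA or DNA in the cytosol. Ddx58 (RIG-I) and Ifih1 (MDA5) are helicases that bind double-stranded RNA and signal through Mavs, an adaptor on the mitochondrial outer membrane, to induce interferons. Dhx58 (LGP2) is a related helicase without the signalling domains and modulates the other receptors. Eif2ak2 (PKR) is a kinase that halts translation when it binds double-stranded RNA, and Adar edits adenosine to inosine in such RNA, which limits its recognition. Aim2 binds DNA in the cytosol and assembles an inflammasome that activates caspase-1. Not every member is a cytosolic receptor: Tlr3 is an endosomal receptor for double-stranded RNA, Mavs is an adaptor and Adar an editing enzyme. Several of these genes are themselves known interferon-induced genes, so their level is commonly read as part of an interferon response.

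The start regions are shown because they hold the known routes from interferon to such genes: the interferon-stimulated response element (searched as GAAANNGAAA) and the gamma-activated site (searched as TTCNNNGAA), each on both strands. RefSeq windows of build GRCm38.p6, spanning 250 bases before to 50 after each start, were at hand for 7 of the 8 genes (all but Dhx58). The response element was found in 3 of the 7, in Ifih1 at chr2:62646206-62646235 (minus strand), in Ddx58 at chr4:40239804-40239833 (minus strand) and in Eif2ak2 at chr17:78882535-78882564 (minus strand). Its letters occurred in 3.44% of all 32851 windows. Counted by gene, they occurred for 407 of the 10211 tested genes with a window (3.99%). The sites follow with 30 bases each, written along the gene's own strand, and capitals mark the motif. In Ddx58 the element lies on the opposite strand, so its complement is in capitals. The motif begins at base 33 of the transcribed part in Ifih1, base 3 in Ddx58 and base 19 in Eif2ak2.
Ifih1: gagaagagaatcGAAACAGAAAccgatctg
Ddx58: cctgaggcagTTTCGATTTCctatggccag
Eif2ak2: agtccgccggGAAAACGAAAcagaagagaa

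The gamma-activated site, present in 8.3% of all windows and for 8.55% of the tested genes with a window, was found in 2 of the 7 genes. In Adar it lies at chr3:89730730-89730759 (plus strand) in 1 of the 3 windows of that gene, and in Eif2ak2 at chr17:78882731-78882760 (minus strand), beginning 178 bases before the start. Capitals again mark the motif.
Adar: gggaagccttTTCAAGGAAacgaaagtgaa
Eif2ak2: ctgcagagctTTCCCAGAAtggaagccagg
The motifs of Eif2ak2 did not overlap, and the windows of Mavs, Aim2 and Tlr3 held neither run of letters. A match describes the sequence only and is no evidence of binding. Only these exact patterns were searched, so a variant form of either motif would be missed in any of the windows.

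In GENCODE M21 on build GRCm38 all 8 are protein-coding genes. Ifih1 spans chr2:62595798-62646255 on the minus strand and Mavs chr2:131234063-131248025 on the plus strand. Ddx58 spans chr4:40203773-40239828 and Dhx58 chr11:100694884-100704271, both on the minus strand. Eif2ak2 spans chr17:78852564-78882573 and Tlr3 chr8:45395665-45411080, also on the minus strand. Adar (chr3:89715022-89753446) and Aim2 (chr1:173350879-173466040) lie on the plus strand and overlap Chrnb2 and Cadm3 on the other strand. Dhx58, Eif2ak2 and Tlr3 also overlap noncoding genes of the opposite strand. No strand setting is given in the sources used here, so reads from overlapping genes could not be told apart. The values are gene totals, so the interferon-induced and the constitutive isoform of Adar are summed.

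The deposited unit is TPM, a transcript abundance, which corrects for transcript length and sums to 1e+06 in each library, so levels may be compared between genes. The entry Mir6236 alone held 6.04% to 17.4% of the TPM of a library. With a fixed total, a larger share there leaves less for all other genes, and its part in the group differences was not tested. TPM hold no read numbers and the depth of each library is unknown. Between 12213 and 13590 genes reached 1 TPM in a library, and 13422 genes averaging 1 TPM or more over the libraries were tested, the 8 sensor genes among them. Kdm3a itself ranged over 25.2 to 30.2 TPM in 6694c2 clone B and 26.2 to 29.8 TPM in clone A, against 38.9 to 67.6 TPM in 6694c2 WT. In 6419c5 it ranged over 12.3 to 18.8 TPM in clone B and 21.6 to 24.6 TPM in clone A, against 24.1 to 38.2 TPM in WT. The ranges of clone A and WT in 6419c5 touched, and remaining transcript checks the labels only in part, because the edited part of the gene is not given. Markers of pancreatic tumor epithelium summed to 5494 to 12823 TPM over all libraries, led by Krt8 and Krt18, and Epcam and Cldn4 fell as low as 0.745 and 0 TPM. Macrophage markers were also present in all 18 libraries, summing to 137 to 8208 TPM.

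Of the 8 sensor genes, 6 were higher in the 6694c2 knockouts than in 6694c2 WT, and 2 were higher in the 6419c5 knockouts than in 6419c5 WT. Changes are differences in log2(TPM + 1) between the mean of both clones and WT of the same line, from a limma model over all 13422 genes, and a gene was called at a Benjamini-Hochberg adjusted p under 0.05. In 6694c2, 6 of the 8 rose (Ifih1, Ddx58, Dhx58, Eif2ak2, Adar and Aim2) and none fell, where 14.7% of all genes tested were called higher and 5.79% lower. In 6419c5, 2 of the 8 rose (Ddx58 and Adar) and none fell, where 3.97% of all genes were called higher and 3.40% lower. The median log2 change over the 8 genes was 1.08 in 6694c2 and 0.43 in 6419c5, beside medians over all genes of 0.15 and 0.01. In 6694c2 the split over all genes depended on the scaling, with 1967 called higher and 777 lower in TPM, against 1023 higher and 1795 lower with median-of-ratios scaling between libraries, which put the median over all genes at -0.03. The same 6 sensors were called higher with that scaling.

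**Figure D1:**
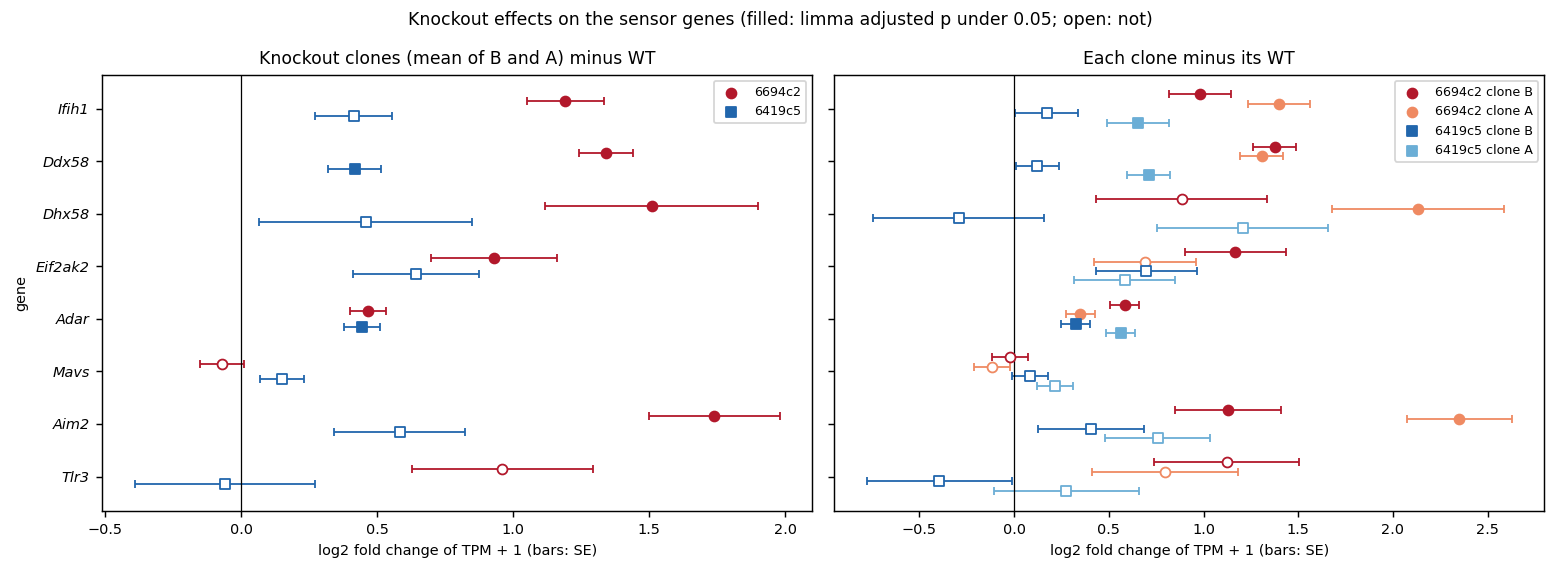
Log2 fold changes of TPM + 1 for the 8 sensor genes, with both clones averaged (left) and for each clone against its WT (right). Points are estimates, bars are standard errors, and filled points have a limma adjusted p under 0.05. On the left, 6 genes are filled in 6694c2 and 2 in 6419c5.

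All 6 knockout libraries of 6694c2 lay above all 3 WT libraries for 4 of the 8 genes, Ifih1, Ddx58, Adar and Aim2. Over all genes tested, 13.2% showed that separation. In 6419c5 only Adar separated in this way, where 4.60% of all genes did. No sensor gene lay entirely below WT in either line.

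Ifih1, the receptor MDA5, separated all 3 groups of 6694c2. It stood at 4.06, 3.88 and 5.66 TPM in the 3 libraries of 6694c2 clone B and at 7.12, 6.03 and 5.88 TPM in clone A, against 1.57, 1.74 and 2.03 TPM in 6694c2 WT. In 6419c5 it stood at 8.08, 10.6 and 8.48 TPM in clone B and at 11.2, 14.9 and 13.1 TPM in clone A, against 9.08, 6.35 and 8.48 TPM in WT. In 6694c2 clone A was highest and WT lowest, while in 6419c5 clone B overlapped WT and clone A lay above both. The change on the log2 scale was 1.19 (SE 0.14, adjusted p = 3.29e-05) in 6694c2 and 0.41 (SE 0.14, adjusted p = 0.102) in 6419c5. The highest knockout library of 6694c2, at 7.12 TPM, was within the range of 6419c5 WT.

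Ddx58 showed the smallest standard error of the 3 helicases. Its libraries gave 14.4, 14.8 and 16.6 TPM in 6694c2 clone B and 16.2, 13.6 and 13.8 TPM in clone A, against 5.26, 4.74 and 5.85 TPM in WT. In 6419c5 they gave 9.71, 10.8 and 10.8 TPM in clone B and 14.4, 17.9 and 16.4 TPM in clone A, against 8.86, 9.04 and 10.6 TPM in WT. Both 6694c2 clones and clone A of 6419c5 reached a similar level, whereas clone B of 6419c5 overlapped its WT. On the log2 scale the change was 1.34 (SE 0.10, adjusted p = 2.09e-07) in 6694c2 and 0.42 (SE 0.10, adjusted p = 0.0167) in 6419c5. The call in 6419c5 was lost without WT replicate 1 (0.37, adjusted p = 0.0868) or WT replicate 2 (0.39, adjusted p = 0.079).

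Dhx58, the regulatory helicase, varied more between libraries of 1 group. Its values were 1.47, 2.21 and 5.73 TPM in 6694c2 clone B and 10.5, 7.47 and 6.30 TPM in clone A, against 0.560, 2.49 and 0.553 TPM in WT. In 6419c5 they were 4.34, 4.44 and 4.89 TPM in clone B and 8.15, 20.3 and 18.8 TPM in clone A, against 3.11, 5.60 and 10.6 TPM in WT. Clone A of 6694c2 lay above WT, clone B overlapped WT, and in 6419c5 both clones overlapped WT. The log2 change was 1.51 (SE 0.39, adjusted p = 0.0140) in 6694c2 and 0.46 (SE 0.39, adjusted p = 0.624) in 6419c5. The 6694c2 call was lost without WT replicate 1 (1.32, adjusted p = 0.0637) or WT replicate 3 (1.31, adjusted p = 0.0558).

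Mavs, the adaptor downstream of these helicases, passed the test in neither line. It stood at 16.9, 18.2 and 15.6 TPM in 6694c2 clone B and at 17.3, 15.7 and 14.4 TPM in clone A, against 16.0, 17.2 and 18.4 TPM in WT. In 6419c5 it stood at 30.4, 32.8 and 28.0 TPM in clone B and at 30.6, 34.4 and 35.0 TPM in clone A, against 28.8, 27.7 and 29.1 TPM in WT. The 6694c2 groups overlapped throughout, while in 6419c5 clone A lay above WT and clone B overlapped it. The change on the log2 scale was -0.07 (95% interval -0.24 to 0.10, adjusted p = 0.579) in 6694c2 and 0.15 (95% interval -0.03 to 0.32, adjusted p = 0.358) in 6419c5. With median-of-ratios scaling between libraries Mavs was called lower in 6694c2 (-0.26, adjusted p = 0.0363), and likewise with quantile normalization (-0.26, adjusted p = 0.0351).

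Tlr3, the endosomal receptor, had 6.88, 8.86 and 8.74 TPM in 6694c2 clone B and 5.57, 6.78 and 6.50 TPM in clone A, against 2.40, 1.82 and 6.64 TPM in WT. In 6419c5 it had 5.57, 12.1 and 6.26 TPM in clone B and 14.0, 12.3 and 11.6 TPM in clone A, against 19.4, 6.13 and 8.74 TPM in WT. Replicate 3 of 6694c2 WT reached the level of clone A, and replicate 1 of 6419c5 WT was the highest of all 18 libraries. On the log2 scale the change was 0.96 (SE 0.33, adjusted p = 0.0536) in 6694c2 and -0.06 (SE 0.33, adjusted p = 0.966) in 6419c5. Without 6694c2 WT replicate 3 the 6694c2 change was 1.39 and passed the test (adjusted p = 0.00896). It also passed with log2(TPM + 0.1) (1.18, adjusted p = 0.0405), with the macrophage index described below as a term, and without 6419c5 WT replicate 1 (adjusted p = 0.0267), WT replicate 2 (adjusted p = 0.0404) or clone B replicate 2 (adjusted p = 0.0452), libraries that act on it only through the shared spread and adjustment.

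Eif2ak2, which encodes the kinase PKR, had 23.1, 25.2 and 22.2 TPM in 6694c2 clone B and 16.1, 17.7 and 16.0 TPM in clone A, against 8.93, 6.62 and 16.0 TPM in WT. In 6419c5 it had 25.6, 41.5 and 32.0 TPM in clone B and 33.4, 27.3 and 29.2 TPM in clone A, against 27.6, 13.4 and 20.2 TPM in WT. Clone B of 6694c2 lay above WT, while clone A met the highest WT library, and in 6419c5 both clones overlapped WT. The log2 change was 0.93 (SE 0.23, adjusted p = 0.0116) in 6694c2 and 0.64 (SE 0.23, adjusted p = 0.121) in 6419c5. Without 6694c2 WT replicate 2 the change in 6694c2 was 0.67 and no longer passed (adjusted p = 0.0745). The change in 6419c5 passed without 6694c2 WT replicate 3 (0.64, adjusted p = 0.0453) and with quantile normalization (0.63, adjusted p = 0.0465).

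Adar, the editing enzyme, was the most abundant of the 8 with a mean of 34.3 TPM and had the smallest standard error. It had 37.4, 36.9 and 37.9 TPM in 6694c2 clone B and 33.8, 31.7 and 29.7 TPM in clone A, against 22.5, 26.9 and 24.6 TPM in WT. In 6419c5 it had 36.8, 37.0 and 39.1 TPM in clone B and 42.5, 44.0 and 47.1 TPM in clone A, against 29.9, 30.2 and 29.3 TPM in WT. Every knockout library lay above every WT library of its line. The change on the log2 scale was 0.47 (SE 0.07, adjusted p = 1.74e-04) in 6694c2 and 0.44 (SE 0.07, adjusted p = 5.56e-04) in 6419c5. The rise in 6694c2 was 0.27 with median-of-ratios scaling, where it was still called (adjusted p = 0.0496).

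Aim2, the DNA sensor, had 7.70, 8.68 and 7.51 TPM in 6694c2 clone B and 16.6, 20.05 and 23.5 TPM in clone A, against 2.80, 1.93 and 5.15 TPM in WT. In 6419c5 it had 7.76, 13.9 and 7.52 TPM in clone B and 13.1, 12.6 and 11.0 TPM in clone A, against 8.92, 4.47 and 7.81 TPM in WT. The 3 groups of 6694c2 were fully apart, with clone A highest, and in 6419c5 clone A lay above WT and clone B overlapped it. On the log2 scale the change was 1.74 (SE 0.24, adjusted p = 1.45e-04) in 6694c2 and 0.58 (SE 0.24, adjusted p = 0.187) in 6419c5. The 6694c2 change was the largest among the 8 genes.

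**Figure D2:**
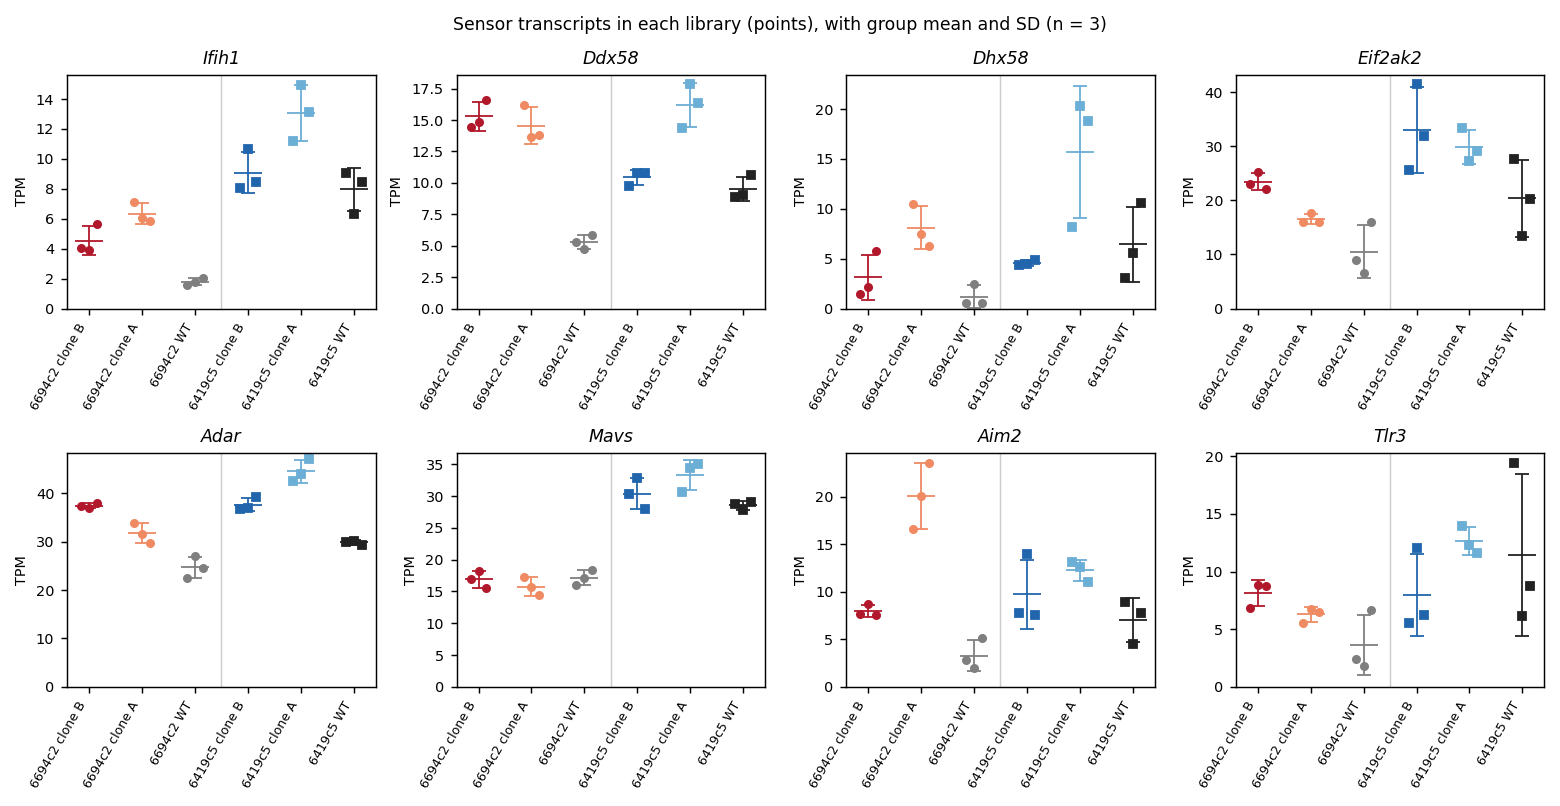
TPM of each sensor gene in the 18 libraries by group. Points are libraries, horizontal bars the group mean and error bars the SD (n = 3), with a separate axis from 0 for each gene. Adar lies above WT in all 4 knockout groups, and the Mavs groups of 6694c2 overlap.

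The size of the knockout effect differed between the lines for 3 of the 8 genes, all larger in 6694c2. Over all genes tested, 5.78% were called higher in this comparison. The difference in log2 change (6694c2 minus 6419c5) was 0.92 for Ddx58 (SE 0.14, adjusted p = 0.00104), 0.78 for Ifih1 (SE 0.20, adjusted p = 0.0269) and 1.16 for Aim2 (SE 0.34, adjusted p = 0.0490). Of all genes, 776 of the 1169 called were higher, against 506 higher and 815 lower with median-of-ratios scaling. Ddx58 kept its call in all 28 alternatives, Ifih1 lost it in 8 and Aim2 in 21. For Ifih1 the libraries concerned were 6694c2 WT replicate 1 (0.72, adjusted p = 0.0645) or 2 (0.77, adjusted p = 0.0553) and 6419c5 WT replicate 1 (0.69, adjusted p = 0.0705) or 3 (0.73, adjusted p = 0.0755). Aim2 lost its call without any 1 of 14 of the 18 libraries, with adjusted p up to 0.126. Mavs was called, with a more negative change in 6694c2, under median-of-ratios scaling (-0.40, adjusted p = 0.0458) and quantile normalization (-0.40, adjusted p = 0.0414), and Tlr3 was called without 6694c2 WT replicate 3 (1.45, adjusted p = 0.0461). For Adar the difference was 0.02 (95% interval -0.18 to 0.22). The intervals of the other 4 were wider, from -0.13 to 2.23 for Dhx58, 0.02 to 2.02 for Tlr3 (adjusted p = 0.199), -0.41 to 0.99 for Eif2ak2 and -0.47 to 0.03 for Mavs.

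The comparison of the WT groups gives the starting levels behind these effects. All 8 sensor genes were lower in 6694c2 WT than in 6419c5 WT, where 32.2% of all genes tested were called lower and the median over all genes was -0.22. The log2 difference (6694c2 WT minus 6419c5 WT) was -1.74 for Dhx58, -1.68 for Ifih1, -1.42 for Tlr3, -0.93 for Aim2, -0.92 for Eif2ak2, -0.74 for Ddx58, -0.70 for Mavs and -0.27 for Adar. The adjusted p was highest for Aim2, at 0.0131. With median-of-ratios scaling all genes split 2921 higher and 2812 lower, where 4319 of the 6213 called were lower in TPM. For Adar the difference was -0.05 with median-of-ratios scaling (adjusted p = 0.736) and -0.04 with quantile normalization (adjusted p = 0.773), and its call was also lost without 6694c2 WT replicate 1 (-0.20, adjusted p = 0.0536). Aim2 lost its call without 6419c5 WT replicate 1 (-0.76, adjusted p = 0.0588) or 6694c2 WT replicate 2 (-0.69, adjusted p = 0.0653). Eif2ak2 lost its call without the same 2 libraries in turn (-0.68, adjusted p = 0.0597, and -0.66, adjusted p = 0.0592). Since the knockout effect of each line is measured against these same WT libraries, the starting levels and the effects are not independent.

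The clones of a line also differed. In 6694c2, clone B against WT gave 5 of 8 genes higher (Ifih1, Ddx58, Eif2ak2, Adar and Aim2), where 10.6% of all genes were called higher. Clone A against the same WT gave 5 of 8 (Ifih1, Ddx58, Dhx58, Adar and Aim2), where 14.7% were called higher. All 3 libraries lay above WT for 6 genes in clone B (24.0% of all genes) and for 5 in clone A (24.7%). Dhx58 changed by 0.88 (adjusted p = 0.206) in clone B and 2.13 (adjusted p = 0.00405) in clone A. Eif2ak2 changed by 1.17 (adjusted p = 0.00893) in clone B and 0.69 (adjusted p = 0.0806) in clone A. Aim2 lost its call in clone B without clone B replicate 2 (1.07, adjusted p = 0.0562) or WT replicate 2 (0.89, adjusted p = 0.0674), and Adar lost its call in clone A with median-of-ratios scaling (0.18, adjusted p = 0.250). Without WT replicate 3 the calls were extended to Tlr3 in clone B (1.56, adjusted p = 0.0103) and to Tlr3 (1.23, adjusted p = 0.0287) and Eif2ak2 (1.01, adjusted p = 0.0103) in clone A. With median-of-ratios scaling all genes split 619 higher and 1116 lower in clone B and 1307 higher and 1838 lower in clone A.

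In 6419c5, clone B against WT gave 1 of 8 genes higher, Adar at 0.33 (SE 0.08, adjusted p = 0.00838), where 7.97% of all genes were called higher. Clone A against the same WT gave 3 of 8, Adar at 0.56 (adjusted p = 3.42e-04), Ddx58 at 0.71 (adjusted p = 0.00126) and Ifih1 at 0.66 (adjusted p = 0.0320), where 3.14% were called higher. All 3 libraries lay above WT for Adar alone in clone B (15.8% of all genes) and for Ifih1, Ddx58, Adar, Mavs and Aim2 in clone A (13.1%). Ifih1 in clone A lost its call without WT replicate 2 (0.52, adjusted p = 0.141), clone A replicate 2 (0.56, adjusted p = 0.146) or clone A replicate 3 (0.65, adjusted p = 0.104), and with a replicate block (adjusted p = 0.0535). Eif2ak2 in clone B was called without WT replicate 1 (0.94, adjusted p = 0.0320) or without 6694c2 WT replicate 3 (0.70, adjusted p = 0.0317). With quantile normalization all genes split 1379 higher and 1139 lower in clone B, against 1070 higher and 1470 lower in TPM, and in clone A 302 higher and 324 lower, against 422 higher of 643 called in TPM.

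Set directly against each other, clone B was lower than clone A for 4 of 8 genes in 6419c5, where 18.9% of all genes were called lower. The log2 difference (clone B minus clone A) was -1.50 for Dhx58 (adjusted p = 0.0235), -0.59 for Ddx58 (adjusted p = 0.00193), -0.48 for Ifih1 (adjusted p = 0.0409) and -0.24 for Adar (adjusted p = 0.0329). Ddx58 was the steadiest of these, and lost its call in 1 of 28 alternatives, with the macrophage index below as a term (-0.43, adjusted p = 0.132). With that term the others lost their calls too: Dhx58 (0.41, adjusted p = 0.401), Ifih1 (-0.24, adjusted p = 0.548) and Adar (-0.15, adjusted p = 0.438). Ifih1 and Adar also lost their calls with median-of-ratios scaling (adjusted p = 0.0655 and 0.418). Quantile normalization ended the calls of Dhx58, Ifih1 and Adar (adjusted p = 0.0506, 0.0655 and 0.288). The other 3 calls were each lost without clone A replicate 2, clone A replicate 3 or clone B replicate 1, with adjusted p up to 0.102 for Dhx58, 0.164 for Ifih1 and 0.134 for Adar. Clone B replicate 2 had the same effect for Dhx58 and Adar, clone B replicate 3 for Dhx58 and Ifih1, and 6694c2 clone A replicates 2 and 3 for Ifih1 (adjusted p = 0.0523 and 0.0501). The Ifih1 call was also lost with a replicate block (adjusted p = 0.0577). With quantile normalization all genes split 1943 higher and 1655 lower. In 6694c2 only Aim2 differed, lower in clone B by -1.22 (SE 0.28, adjusted p = 0.0144), where 4.26% of all genes were called lower and 5.27% higher. That call was lost without clone A replicate 3 (-1.11, adjusted p = 0.0673), clone B replicate 1 (-1.20, adjusted p = 0.0646) or clone B replicate 2 (-1.28, adjusted p = 0.0528). Without clone B replicate 3, Dhx58 (-1.67, adjusted p = 0.0273) and Ifih1 (-0.56, adjusted p = 0.0427) were called lower in clone B as well.

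The order of the groups was not the same for every sensor. Group means of Ifih1 were highest in 6419c5 clone A (13.1 TPM), then 6419c5 clone B (9.07), 6419c5 WT (7.97), 6694c2 clone A (6.34), 6694c2 clone B (4.53) and 6694c2 WT (1.78). The libraries overlapped between 6419c5 clone B and WT and between 6419c5 WT and 6694c2 clone A, and were apart at the other 3 steps. For Ddx58 the means were 16.2 TPM in 6419c5 clone A, 15.3 in 6694c2 clone B and 14.5 in 6694c2 clone A, which overlapped. They were followed by 10.4 in 6419c5 clone B and 9.51 in 6419c5 WT, which also overlapped, and by 5.28 in 6694c2 WT, which stood alone. Mavs split by line, with 6419c5 means from 28.6 to 33.4 TPM and 6694c2 means from 15.8 to 17.2 TPM.

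For Adar the top mean, 44.5 TPM in 6419c5 clone A, stood apart from 37.6 in 6419c5 clone B and 37.4 in 6694c2 clone B, which overlapped. Next came 31.7 TPM in 6694c2 clone A and 29.8 in 6419c5 WT, again overlapping, and 24.7 in 6694c2 WT, apart from the rest. Aim2 had its highest mean in 6694c2 clone A (20.1 TPM), apart from 12.3 TPM in 6419c5 clone A, and every lower neighbour overlapped, down to 3.30 TPM in 6694c2 WT. Neighbouring groups overlapped at all 5 steps for Dhx58, from 15.7 to 1.20 TPM, and for Tlr3, from 12.6 to 3.62 TPM. For Eif2ak2, from 33.0 to 10.5 TPM, a gap lay only between 6419c5 clone A and 6694c2 clone B. The 6694c2 WT group was last for all of the genes but Mavs.

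Macrophages are known to express sensors of this kind, and the macrophage content of the sorted cells is given beside them. The macrophage index of a library is the mean log2(TPM + 1) of 10 macrophage markers. It was 4.12, 4.19 and 7.08 in 6694c2 clone B and 7.68, 7.13 and 7.27 in clone A, against 4.55, 6.15 and 2.97 in WT. In 6419c5 it was 3.63, 3.36 and 4.14 in clone B and 6.69, 8.61 and 8.20 in clone A, against 5.64, 6.33 and 8.29 in WT. Clone A of both lines was at the high end, and 6419c5 clone B at the low end. In bulk RNA, fewer cells of a type and less RNA per cell cannot be told apart.

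In replicates 1 and 2 of 6694c2 clone B the index lay inside the WT range. In those libraries Ddx58 was at 14.4 and 14.8 TPM, against at most 5.85 TPM in WT, and Ifih1 at 4.06 and 3.88 TPM, against at most 2.03 TPM in WT. Aim2 was at 7.70 and 8.68 TPM there, against at most 5.15 TPM in WT, and Adar at 37.4 and 36.9 TPM, against at most 26.9 TPM in WT. Dhx58 was at 1.47 and 2.21 TPM in the same libraries, within the WT range of 0.553 to 2.49 TPM. Eif2ak2 and Tlr3 also lay above WT in these libraries, so 6 of the 8 genes did, while Dhx58 and Mavs did not. Over all genes tested, 33.2% lay above WT in both of these libraries.

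Within groups, only Dhx58 moved with the index at the threshold, by 0.46 log2 units for each unit of the index (SE 0.06, adjusted p = 7.21e-05), where 7.83% of all genes had a positive and 8.14% a negative slope called. Slopes of the other 7 ranged from -0.21 for Tlr3 (adjusted p = 0.157) to 0.06 for Ifih1 (adjusted p = 0.396). With the index as a term in the model the change of Dhx58 was 0.73 in 6694c2 (adjusted p = 0.0174) and 0.91 in 6419c5 (adjusted p = 0.00403), where it was then called. In 6419c5 clone B alone, the change of Dhx58 was 1.12 with the index (adjusted p = 0.0113) and -0.29 without it (adjusted p = 0.737). Its TPM in that clone (4.34 to 4.89) lay inside the WT range (3.11 to 10.6). The index did not overlap between that clone (3.36 to 4.14) and WT (5.64 to 8.29). The value with the index as a term therefore rests on the fitted slope, not on libraries of similar index. With that term 7 of the 8 were called higher in 6694c2, Tlr3 being added (1.31, adjusted p = 0.0158), where 17.7% of all genes were called higher in that model. In 6419c5 it was 3 of the 8, where 6.09% of all genes were called higher. Beyond these fits, the part of the macrophage content in the sensor levels was not tested.

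**Figure D3:**
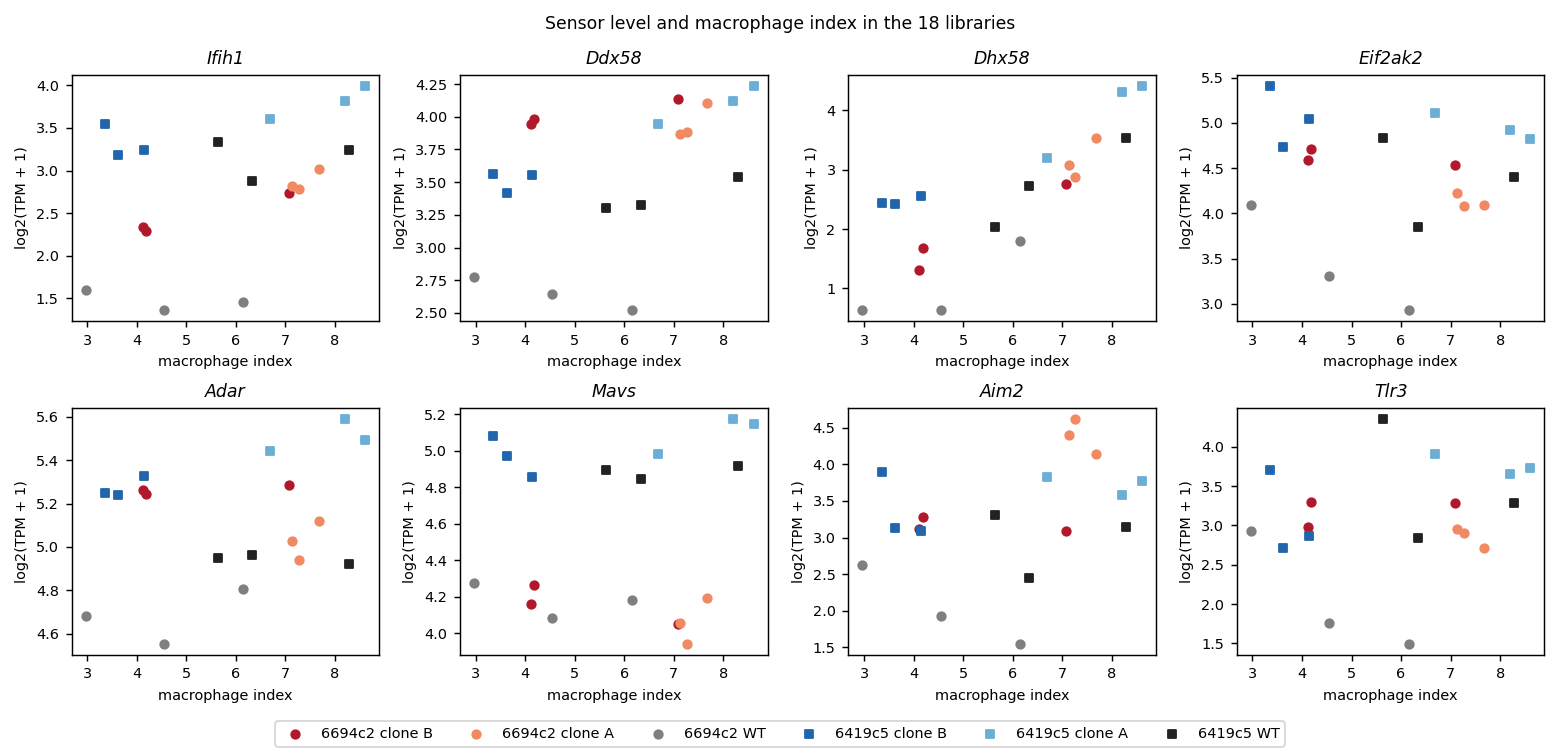
Level of each sensor gene as log2(TPM + 1) against the macrophage index (mean log2(TPM + 1) of 10 macrophage markers) in the 18 libraries, by group. Dhx58 tends to be higher where the index is higher, and the 6694c2 knockout points of Ddx58 lie above the 3 WT points of that line. The index spans 4.12 to 7.68 in the 6694c2 knockouts and 2.97 to 6.15 in 6694c2 WT, so the ranges are shared only in part.

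Other cell types also moved with the 6694c2 knockouts. Called higher there were 5 of 6 tested T and NK cell markers, 5 of 6 neutrophil, 4 of 9 fibroblast, 2 of 6 endothelial and 2 of 4 dendritic cell markers. Called lower were 4 of 9 tumor epithelium and 3 of 4 erythroid markers. Among all genes tested, 14.7% were called higher and 5.79% lower in that comparison. Of the 10 macrophage markers, limma called 0 in either line with both clones averaged, with 4 higher in 6694c2 and 1 lower in 6419c5 at an unadjusted p under 0.05. The clones of 6694c2 were unlike in this. Against WT, limma called 0 of 10 macrophage, 0 of 9 fibroblast and 0 of 6 endothelial markers in clone B (0, 1 and 1 at an unadjusted p under 0.05), while it called 8 of 10, 8 of 9 and 5 of 6 higher in clone A. T and NK cell markers were higher in both, 3 of 6 in clone B and 5 of 6 in clone A, and neutrophil markers numbered 1 of 6 in clone B and 5 of 6 in clone A. Among all genes tested, 10.6% were called higher in clone B and 14.7% in clone A. In 6419c5 only 1 of 4 dendritic cell markers was higher and 5 of 9 epithelial markers were lower among all these lists. In that line 3.97% of all genes tested were called higher and 3.40% lower. Summed T and NK cell markers were 18.2 to 39.1 TPM in 6694c2 clone B and 50.3 to 67.0 TPM in clone A, against 2.13 to 7.15 TPM in WT. Summed neutrophil markers were 36.7 to 65.1 TPM in clone B and 156 to 346 TPM in clone A, against 18.1 to 26.7 TPM in WT. No B cell marker reached a mean of 1 TPM, and of the defining dendritic cell markers Xcr1, Clec9a and Flt3 none exceeded 1.66 TPM. The part of these cells in the sensor levels was not tested.

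The other genes of the sensing pathways were taken from lists of textbook members. Beside these lists, 14.7% of all genes tested were called higher in 6694c2 (median 0.15) and 3.97% in 6419c5 (median 0.01). Of 19 genes of RIG-I-like receptor signalling, 9 rose and none fell in 6694c2 (median log2 change 0.30), while limma called 0 in 6419c5 (median 0.08), where 2 were higher and 1 lower at an unadjusted p under 0.05. Irf7, an interferon-inducible transcription factor that acts below Mavs, had 38.4 ± 9.7 TPM in 6694c2 clone B and 47.1 ± 9.3 TPM in clone A, against 14.0 ± 4.6 TPM in WT (SD, n = 3). Its log2 change was 1.56 in 6694c2 (adjusted p = 0.00118). Ddx60, a helicase reported to assist RIG-I, changed by 1.42 (adjusted p = 4.43e-04). Tbk1, the kinase that relays the Mavs signal, and Irf3, its main target, were chosen after their values were seen. They changed by 0.56 (adjusted p = 0.00643) and 0.24 (adjusted p = 0.0843) in 6694c2.

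Of 13 genes of cytosolic DNA sensing tested, 10 rose and 1 fell in 6694c2 (median 1.03), and 1 rose in 6419c5 (median 0.27). The difference between lines was called for 3 of the 13, all larger in 6694c2, where 5.78% of all genes tested were called higher. Zbp1, a sensor of Z-form nucleic acid, had 64.0 ± 10.3 TPM in 6694c2 clone B and 61.0 ± 0.4 TPM in clone A, against 6.00 ± 2.20 TPM in WT. It had 30.9 ± 3.9 TPM in 6419c5 clone B and 70.5 ± 19.0 TPM in clone A, against 14.1 ± 5.2 TPM in WT (SD, n = 3 throughout). Its log2 change was 3.23 in 6694c2 (adjusted p = 2.24e-07) and 1.70 in 6419c5 (adjusted p = 3.20e-04). Mndal, of the same gene family as Aim2, changed by 2.88 in 6694c2 (adjusted p = 1.34e-05), with the limit that its close paralogs may share reads. Ddx41 was the 1 gene that fell, by 0.33 on the log2 scale (adjusted p = 0.00801).

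Tmem173 (STING), the adaptor of DNA sensing, and Mb21d1 (cGAS), the enzyme above it, are given because of their place in the pathway, chosen after their values were seen. Tmem173 had 59.3 ± 4.5 TPM in 6694c2 clone B and 58.2 ± 4.0 TPM in clone A, against 32.5 ± 1.7 TPM in WT, a log2 change of 0.84 (adjusted p = 0.00220). Mb21d1 stayed low, at 1.87 TPM in 6694c2 clone B and 1.88 TPM in clone A, against 1.40 TPM in WT (log2 change 0.28, adjusted p = 0.211).

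All 7 genes of an inflammasome list rose in 6694c2 (median 1.33), with 4 of the 7 called in clone B against WT and all 7 in clone A against WT. Among all genes tested, 10.6% were called higher in clone B and 14.7% in clone A. The list holds partners of Aim2 and also Nlrp3, which is another inflammasome sensor. Casp1, which cleaves the precursor of interleukin-1 beta, had 38.4 ± 1.3 TPM in 6694c2 clone B and 38.6 ± 6.4 TPM in clone A, against 2.20 ± 1.69 TPM in WT (SD, n = 3). Its log2 change was 3.75 (adjusted p = 1.04e-05), and that of Casp4, the caspase of the noncanonical pathway, was 2.89 (adjusted p = 2.81e-07). In 6419c5 the list split, with 1 gene higher (Gsdmd, the pore-forming effector, 0.32, adjusted p = 0.0217) and 1 lower (Il1b, -1.12, adjusted p = 0.00360), and a median of -0.40. The difference between lines was called for 5 of the 7, all larger in 6694c2, where 5.78% of all genes tested were called higher.

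**Figure D4:**
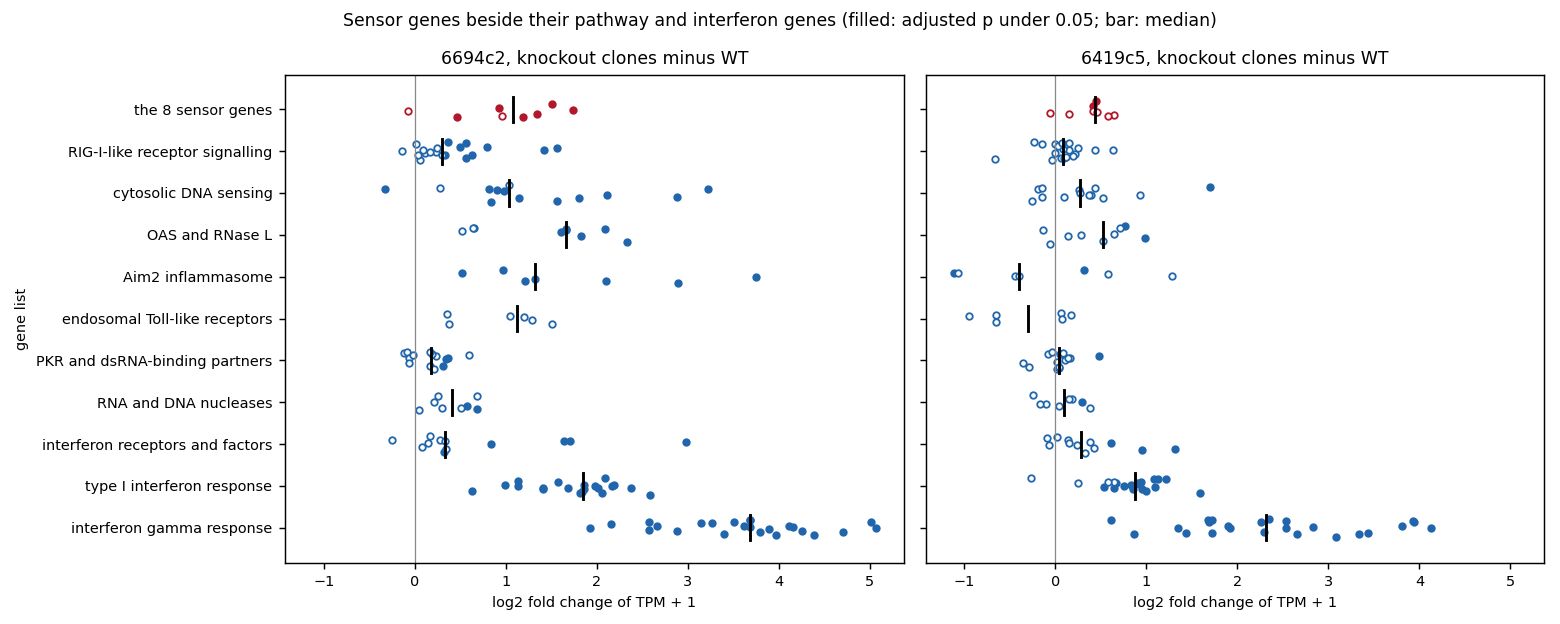
Log2 fold changes of TPM + 1 (mean of both clones minus WT) for the 8 sensor genes and for lists of pathway and interferon-response genes, in 6694c2 (left) and 6419c5 (right). Points are genes, filled where the limma adjusted p is under 0.05, and black bars are list medians. The sensor median is 1.08 in 6694c2, below the medians of the type I interferon list (1.85) and the interferon gamma list (3.68). The lists were drawn up with earlier results of these data known, so the order of the medians is not independent evidence.

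The 2'-5' oligoadenylate synthetases make the activator of the nuclease RNase L, and 7 of 9 genes of this list rose in 6694c2 (median 1.66) and 2 of 9 in 6419c5 (median 0.52). Oasl2 changed by 2.34 in 6694c2 (adjusted p = 5.46e-07) and 0.99 in 6419c5 (adjusted p = 0.00384), Oas1a by 2.09 in 6694c2 (adjusted p = 7.37e-06) and Oas3 by 0.76 in 6419c5 (adjusted p = 0.0337). The Oas1 genes are near-identical copies, so reads may be split among them. Among 14 PKR and double-stranded RNA-binding partners, 3 rose in 6694c2 (median 0.18) and 1 in 6419c5 (median 0.04). Over all genes tested, 14.7% and 3.97% were called higher in these lines, and the medians of 0.15 and 0.01 were close to those of the partners. Adarb1, the second editing enzyme, rose in both lines, by 0.37 (adjusted p = 0.0251) in 6694c2 and 0.48 (adjusted p = 0.0118) in 6419c5, and the eIF2 kinase gene Eif2ak1 by 0.34 in 6694c2 (adjusted p = 0.0247).

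Of 8 genes for nucleases and their partners, 2 rose in 6694c2 (median 0.41) and 1 in 6419c5 (median 0.10). In these lines 14.7% and 3.97% of all genes tested were called higher. The pair in 6694c2 was Rnaset2a (0.68, adjusted p = 0.0497) and Rnaset2b (0.58, adjusted p = 0.0178), near-identical copies whose reads may be split, and the gene in 6419c5 was Skiv2l, a helicase that works with the RNA exosome (0.29, adjusted p = 0.0254). For 6 genes of the endosomal Toll-like receptors and their partners, the family compartment of Tlr3, limma called 0 in both lines with the clones averaged. At an unadjusted p under 0.05, 5 were higher in 6694c2 (median 1.13) and 0 passed in 6419c5 (median -0.30). By clone, 4 of 6 were called higher in 6694c2 clone A (median 1.78) and 3 of 6 lower in 6419c5 clone B (median -1.30). Among all genes tested, 14.7% were called higher in the former and 11.0% lower in the latter. In 6694c2 clone B limma called 0 (median 0.39, with 1 higher at an unadjusted p under 0.05), and in 6419c5 clone A also 0 (median 0.62, with 2 higher).

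The interferon-response genes rose in both lines, with larger median changes than the sensors. Of 20 type I interferon-response genes, all 20 rose in 6694c2 (median 1.85) and 16 in 6419c5 (median 0.87). Of 24 interferon gamma-response genes, all 24 rose in 6694c2 (median 3.68) and all 24 in 6419c5 (median 2.32). The sensor genes, with 6 of 8 and 2 of 8, had medians of 1.08 and 0.43, below both lists in both lines. These lists were drawn up with earlier results of these data known. Neither their direction nor the size of their medians beside the sensors is therefore independent evidence.

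Usp18, a negative regulator of interferon signalling, had 20.5 ± 1.8 TPM in 6694c2 clone B and 20.5 ± 2.1 TPM in clone A, against 2.60 ± 0.38 TPM in WT (SD, n = 3). Its log2 change was 2.58 (adjusted p = 1.19e-09), beside 1.34 for Ddx58 and 0.47 for Adar in the same libraries. Rtp4 changed by 2.38 in 6694c2 (adjusted p = 1.04e-06). In 6419c5 the largest rises of the type I list were in Ifit3 (1.59, adjusted p = 0.00175), which may share reads with its near copy Ifit3b, and Ifit1 (1.21, adjusted p = 0.00107), an RNA-binding inhibitor of translation. Of the gamma list, the chemokine gene Cxcl9 changed by 5.01 in 6694c2 (adjusted p = 6.96e-08), the GTPase gene Iigp1 by 5.06 in 6694c2 (adjusted p = 4.56e-07) and 3.94 in 6419c5 (adjusted p = 1.73e-05), and Ubd by 4.13 in 6419c5 (adjusted p = 3.30e-08).

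In 6419c5 clone B, where of the sensors only Adar rose, 9 of 20 type I genes were called higher and 1 lower (median 0.53), and 19 of 24 gamma genes higher (median 1.86). Over all genes of that comparison, 7.97% were called higher and 11.0% lower. None of 9 OAS and RNase L genes was called by limma in that clone, with 2 lower at an unadjusted p under 0.05. In clone A against the same WT, 19 of 20 type I genes and 24 of 24 gamma genes were higher (medians 1.22 and 2.99), beside 3 of 8 sensors. Among all genes tested, 3.14% were called higher in clone A. Clone B also had 9 of 10 macrophage markers lower than WT.

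Of 12 interferon receptors and transcription factors, 5 rose in 6694c2 and 3 in 6419c5. Irf1, an interferon-inducible transcription factor, changed by 1.71 in 6694c2 (adjusted p = 6.22e-09) and 0.95 in 6419c5 (adjusted p = 7.68e-06). The interferon genes themselves were barely listed: of 12 in the table none reached a mean of 1 TPM, Ifnb1 was at most 0.260 TPM, Ifng at most 0.898 TPM and Ifne at most 1.26 TPM. Their change was therefore not tested.

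The genes whose pattern over the 18 libraries was most like each sensor are given as a description, by Pearson's r of log2(TPM + 1), which includes the differences between lines and clones. Ifih1 was most like Trim5 (r = 0.969), Ddx58 most like Cybb (0.982), Sp140 (0.976) and Phf11d (0.974), and Dhx58 most like Ptpn1 (0.976). Adar was most like Ube2l6 (0.958), Tapbpl (0.948) and Parp14 (0.943). Eif2ak2 was most like Cd47 (0.964), Tlr3 most like Shprh (0.956) and Aim2 most like Enpp2 (0.943), the lowest of the 8 best matches. Mavs was most like Dnaja3 (0.983) and Trap1 (0.980). The libraries of a group share their clone and tumor line, so these values are not evidence of a shared function.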

How the data were processed

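Libraries of sorted mouse tumor cells were sequenced in 6 groups of 3, and all 18 were used. The deposited values are TPM per gene symbol, which the authors made with Salmon on build mm10, per the submitters' processing notes. The Salmon version, annotation, strand setting and the meaning of a batch named in the table's title are not given in the sources used here, so an adjustment between batches, which would change every value, cannot be told apart from none. Since TPM keep no read numbers, depth is unknown and no counting error can be given. Clones carry letters in the deposited table and numbers in the titles, and A was read as the first, which affects names only. Columns of other samples numbered 0.

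Values were analysed as log2(TPM + 1), a scale on which changes of low genes are understated, for 13422 genes with a mean of 1 TPM or more. With limma 3.58.1 (R 4.3.3), 6 group means were modelled together, leaving 12 residual degrees of freedom, with a mean-variance trend in the moderation, and p-values were Benjamini-Hochberg adjusted over all these genes. Every adjusted p is from that test. It was tested on simulated data. Figures and levels used Python 3.11.15, numpy 2.4.6, pandas 2.3.3 and matplotlib 3.10.9. Positions are from GENCODE M21 (GRCm38) and start windows from RefSeq (GRCm38.p6).

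All 8 genes are named, with the 3 tested genes most correlated with each. Of each pathway list, up to 4 genes are named: the 2 that rose and the 2 that fell most among those called in a line. Other genes are marked where named. A gene that this rule names is not reported here. The genes and lists were chosen with earlier results of these data known. Alternatives were other pseudocounts (0.1 and 5), filters on low values (none, or a mean of 5 TPM), median-of-ratios and quantile scaling, a replicate block, the macrophage index as a term, leaving out 1 library or 3 libraries together, and, chosen after seeing the data, removing the 20 most abundant genes.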

Additional observations from a re-analysis of the deposited data

Results flagged for a closer look

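For 3 of the 8 sensor genes a test of the difference itself found unlike knockout effects in the 2 lines, each larger in 6694c2 than in 6419c5. Among all genes tested, 5.78% were called higher in this comparison. For Ddx58 the log2 change was 1.34 in 6694c2 and 0.42 in 6419c5, a difference of 0.92 (limma adjusted p = 0.00104). All 6 knockout libraries of 6694c2 were above their WT for this gene. For Ifih1 the changes were 1.19 in 6694c2 and 0.41 in 6419c5, a difference of 0.78 (limma adjusted p = 0.0269), and the 6 knockout libraries of 6694c2 were again all above WT. That separation, shown by 13.2% of all genes tested, does not compare the lines. For Aim2 the changes were 1.74 in 6694c2 and 0.58 in 6419c5, a difference of 1.16 (limma adjusted p = 0.0490), close to the threshold. The Aim2 call was lost in 21 of 28 alternatives and the Ifih1 call in 8. Each of these genes was also lower in 6694c2 WT than in 6419c5 WT, the libraries from which the effects are measured. Single libraries were not tested for standing apart from their group.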

How the results depend on the processing

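The call of 6 of the 8 sensor genes as higher in 6694c2 ranged over 5 to 7 genes when each library was left out. With TPM the 6694c2 knockouts were shifted upwards: all genes split 1967 higher and 777 lower, against 1023 higher and 1795 lower with median-of-ratios scaling, 914 and 1622 with quantile normalization and 1331 and 1194 without the 20 most abundant genes. The 6 sensors stayed called higher under each of these, and Mavs was added as lower under both scalings. In 6419c5 the number called (2) was 4 with quantile normalization and 1 to 3 with a library left out. For the difference between lines (3) it was 1 with log2(TPM + 5), 1 without the 3 libraries that stood apart in earlier results (6694c2 clone B replicate 3, clone A replicate 1 and 6419c5 WT replicate 3) and 1 to 4 with 1 library left out. For 6419c5 clone B against WT (1) it was 2 with median-of-ratios scaling, quantile normalization or the macrophage index, and 1 to 2 with a library left out. For 6419c5 clone B against clone A (4) it was 2 with log2(TPM + 0.1), with median-of-ratios scaling or without the 20 most abundant genes, 1 with quantile normalization, 0 by limma with the macrophage index (3 at an unadjusted p under 0.05) and 1 to 4 with a library left out. For 6694c2 clone B against clone A (1) it was 2 without the 3 libraries together and 0 to 3 with 1 left out, where the 0 came without clone A replicate 3 or clone B replicate 1 or 2. With the macrophage index as a term, Dhx58 reversed in 6419c5 clone B against WT (1.12, limma adjusted p = 0.0113) and against clone A (0.41, limma adjusted p = 0.401). The index of clone B (3.36 to 4.14) overlapped neither WT (5.64 to 8.29) nor clone A (6.69 to 8.61). Both values therefore rest on the fitted slope, not on libraries of similar index. Over single genes, comparisons and alternatives, 2116 values kept their state, called or not called, 89 lost a call, 33 gained one and 2 reversed. The 2116 include values called in neither fit, so they do not measure how often a call was kept. The cause of these changes was not tested.

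Of 45 pairs of libraries with the same replicate number in different groups, 15 had deviations correlated above 0.1 (median -0.04, range -0.39 to 0.48). Among 90 pairs with other numbers, 40 did (median 0.02, range -0.63 to 0.66). By this measure replicate numbers showed no pairing of the libraries. With a replicate block, the sensors called numbered 6 in 6694c2, 2 in 6419c5 and 2 for the difference between lines, where Aim2 had an adjusted p of 0.0737 by limma. Among single genes the block also ended the Ifih1 calls in 6419c5 clone A against WT (limma adjusted p = 0.0535) and clone B against clone A (limma adjusted p = 0.0577), and changed no other call of the sensors.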
